A study of Homo sapiens with 70 samples.

Results

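The RNA-seq libraries compared here come from IMR90 cells, human lung fibroblasts, in which p53 was knocked down during RAS-induced senescence (OIS). They were chosen by their labels alone: 5 OIS-shp53 libraries and 5 OIS-v-v libraries, 10 of the 70 samples of the series. All 10 carried pLNCX2 ER:HRAS G12V, an oncogenic HRAS fused to an oestrogen receptor domain that 4OHT switches on, and all were collected after 6 days in 100 nM 4OHT. All 10 also carried the empty pSuper vector, the control for a C/EBPβ hairpin. OIS-shp53 cells carried pMSCV miR p53, 1 hairpin against p53, and OIS-v-v cells the empty pMSCV miR vector. As 1 hairpin was used, the effect of losing p53 and any other effect of the hairpin cannot be told apart. Grow-v-v libraries (both empty vectors, no 4OHT) and a parallel pair, OIS-shCEBPB and OIS-shCEBPB-shp53, in which pSuper carried the C/EBPβ hairpin, gave 5 libraries each and serve as context. These 25 libraries make up 1 count table.

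p53 is a transcription factor that stressed cells stabilise and that binds DNA as a tetramer. In senescent fibroblasts it is best known for activating CDKN1A, which encodes p21, an inhibitor of the cyclin-dependent kinases whose activity drives the cell cycle. Its other direct targets include MDM2, the ubiquitin ligase that marks p53 itself for destruction, death receptors such as FAS, and enzymes of DNA repair and redox balance. Genes of G2 and M phase are among those known to be repressed when p21 is high, through the DREAM complex, which binds a short element called the CHR. C/EBPβ, by contrast, is known for driving the inflammatory secretome of senescent cells, the SASP.

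Total counts ran from 16481086 to 18720716 in OIS-v-v and from 15311687 to 24890797 in OIS-shp53 libraries. Levels below are CPM, counts relative to the TMM-scaled library size, which compare 1 gene between libraries and not genes with each other. The 10 libraries fell into 2 sets by replicate number, replicates 1 to 3 and replicates 4 and 5. What separates the sets is not given in the labels. The deviations of a library from its group mean correlated at between 0.37 and 0.60 with those of the other group's libraries in the same set, and at between -0.55 and -0.41 across the sets (genes are not independent replicates). Results are therefore given for all 5 pairs of equal replicate number and, for many but not all of the lists and genes whose sets differ, for each set. The summed level of 10 fibroblast markers was 13950 to 21420 CPM in OIS-v-v and 17620 to 20880 CPM in OIS-shp53 libraries, whereas 5 immune markers together gave 0.598 to 1.01 and 0.433 to 0.835 CPM.

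Promoter windows of 300 bases from RefSeq (GRCh38.p14, 250 bases before to 50 after a gene's start) were searched on both strands for 3 elements, and the stretches below are shown because each comes from a gene of a list described in the results. The first element is the spaced core of a p53 site, CATGNNNNNNCATG. It occurred in windows of 0.472% of the 27305 genes with a window and of 2 of the 65 p53 targets with one, TRIAP1 and PLXNB2. Capitals mark the match.
TRIAP1, chr12:120446335-120446364, minus strand: tgtgggggaggCATGCACGGACATGaagcg
PLXNB2, chr22:50301890-50301919, minus strand: tgcaCATGTGTGGTCATGtgtgcaagtggt

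The second is the interferon-stimulated response element, GAAANNGAAA, which STAT and IRF factors bind. It occurred in 4.38% of all genes with a window and in 15 of the 23 interferon-stimulated genes with one (65.2%). In IFIT1 and IFI27 the match lies on the other strand and reads TTTC.
ISG15, chr1:1013380-1013409, plus strand: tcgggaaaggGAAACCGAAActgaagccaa
MX1, chr21:41420559-41420588, plus strand: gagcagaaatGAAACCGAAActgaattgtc
IFI6, chr1:27672288-27672317, minus strand: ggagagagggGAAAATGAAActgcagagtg
OAS3, chr12:112938452-112938481, plus strand: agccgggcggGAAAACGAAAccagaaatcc
IFIT1, chr10:89392497-89392526, plus strand: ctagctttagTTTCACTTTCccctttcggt
IFI27, chr14:94110618-94110647, plus strand: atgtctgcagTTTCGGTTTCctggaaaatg
CXCL10, chr4:76023699-76023728, minus strand: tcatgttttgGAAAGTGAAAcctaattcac

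The third is the CHR, TTTGAA, found in 18.2% of all genes with a window and in 32 of the 44 G2/M phase genes with one (72.7%), against 4 of 31 S phase genes. Every match is a description of letters in a window and was not tested as a binding site.
CCNB2, chr15:59105105-59105134, plus strand: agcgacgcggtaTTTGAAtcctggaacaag
MKI67, chr10:128126435-128126464, minus strand: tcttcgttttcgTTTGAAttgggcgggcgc
CDC20, chr1:43358904-43358933, plus strand: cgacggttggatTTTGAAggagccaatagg

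CEBPB, whose hairpin was absent from both groups, had 260 to 331 CPM in OIS-v-v and 306 to 337 CPM in OIS-shp53 libraries, a log2 fold change of 0.14 (SE 0.05, edgeR adjusted p = 0.0539). In bulk libraries such as these, fewer cells with a transcript and less transcript in each cell cannot be told apart.

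The comparison asks which part of the senescent transcriptome differs when p53 is depleted. Of 13378 genes tested, 3037 passed an edgeR adjusted p of 0.05 with the replicate number as a block (22.7%). Of them 1610 were higher (12.0%) and 1427 lower (10.7%) in OIS-shp53 cells. Most changes were small: 181 of the genes that passed differed at least 2-fold (1.35%), and the median log2 fold change of all genes was 0.001. Without the block, 594 genes passed. With the block and 1 pair left out, 1538, 1874 and 1738 genes passed without replicate 1, 2 and 3, and 3397 and 2995 without replicate 4 and 5. The lists of genes below were chosen with earlier results of these data known, so they are described by counts and medians and not tested as lists.

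**Figure D1:**
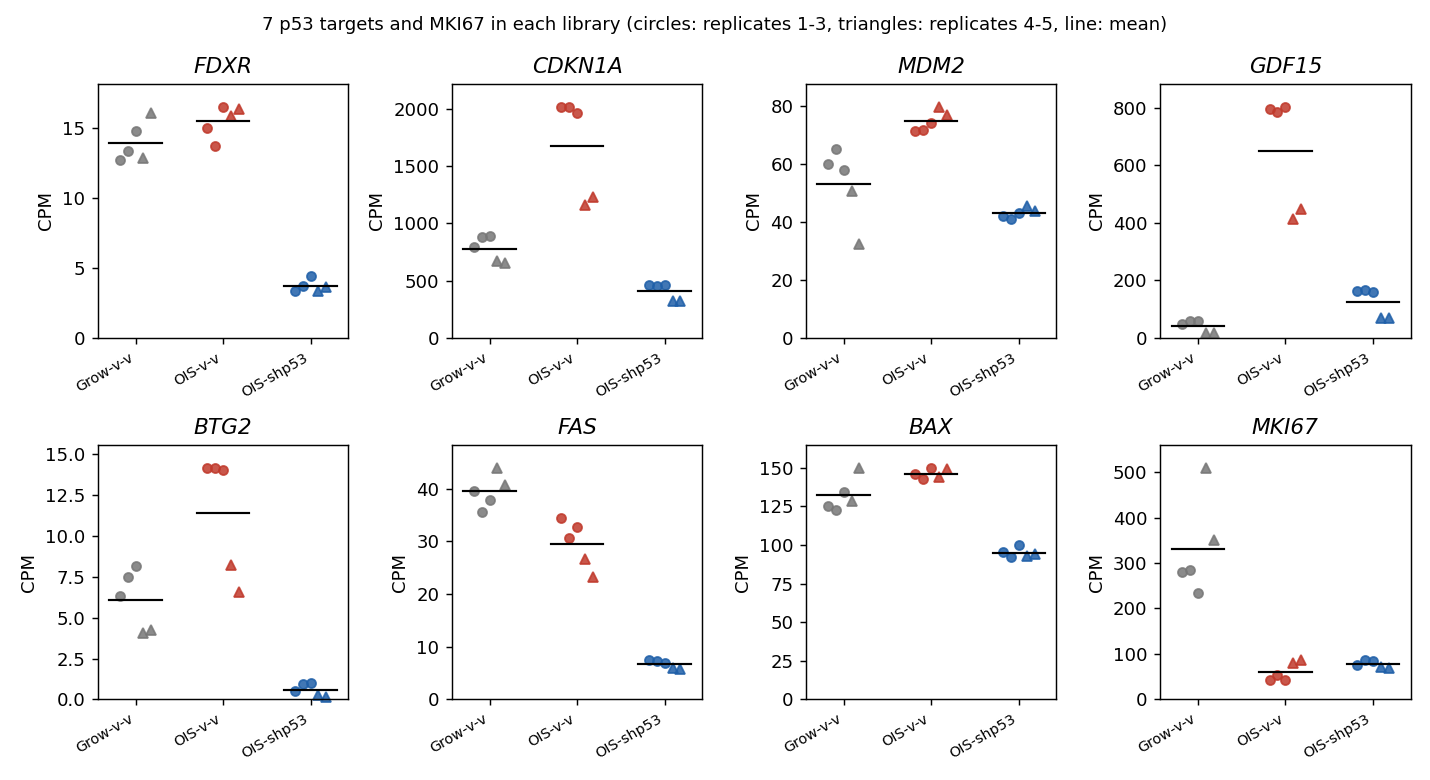
Levels in CPM of 7 p53 targets (FDXR, CDKN1A, MDM2, GDF15, BTG2, FAS and BAX) and MKI67 in each Grow-v-v, OIS-v-v and OIS-shp53 library, with replicates 1 to 3 as circles, replicates 4 and 5 as triangles and bars at the group mean. All 5 OIS-shp53 libraries lie below all 5 OIS-v-v libraries for the 7 targets, whereas for MKI67 the OIS-v-v libraries split into 42.9 to 53.8 CPM (replicates 1 to 3) and 79.0 to 86.5 CPM (replicates 4 and 5).

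Targets of p53 fell. Of 81 listed genes, 80 were matched and 73 passed the filter on low counts. Of these 73, 50 were lower and 0 higher at an edgeR adjusted p of 0.05, against 10.7% and 12.0% of all genes, and 42 had no overlap between the groups, against 3.48% of all genes. At an unadjusted p of 0.05 the edgeR counts were 56 lower and 3 higher, and DESeq2 called 48 lower and 0 higher after adjustment. The median log2 fold change of the list was -0.54. Within the sets, 58 targets were lower in replicates 1 to 3 (background 18.1%) and 43 in replicates 4 and 5 (background 4.75%), and 43 were lower in both. A difference between the sets passed for 10 of the 73, against 8.89% of all genes.

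**Figure D2:**
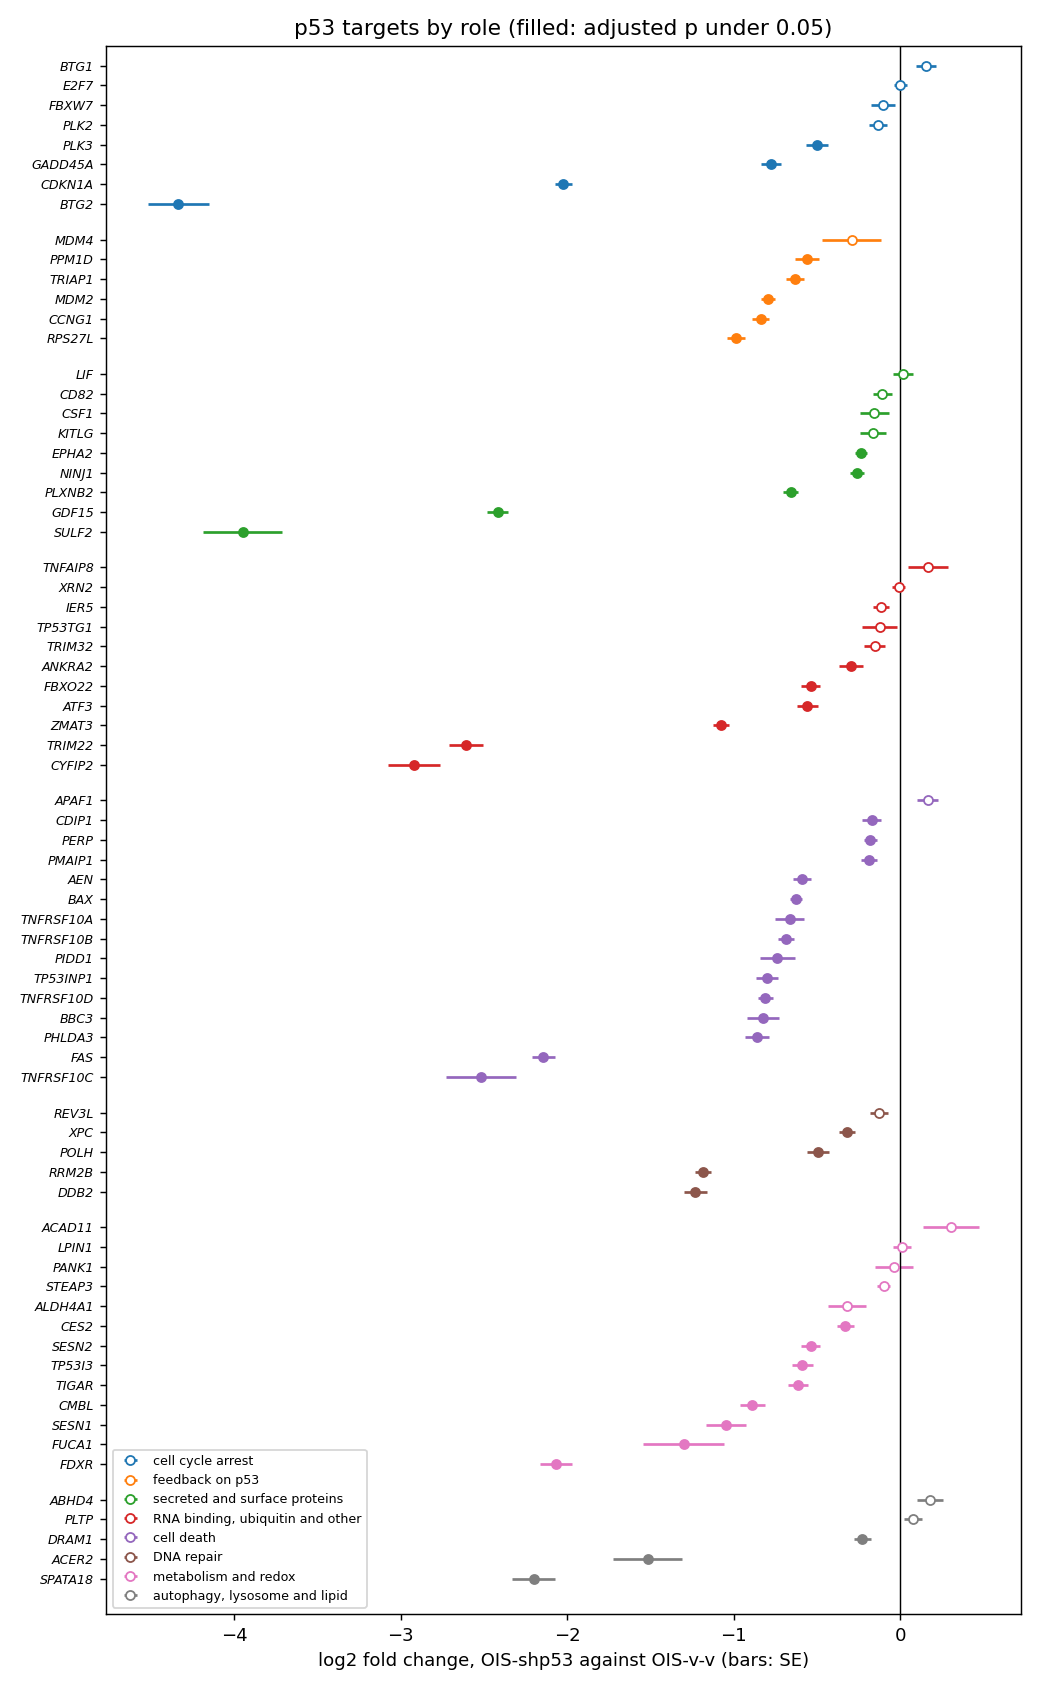
Log2 fold change of 72 of the 73 p53 targets tested in OIS-shp53 against OIS-v-v libraries, grouped by the role of the protein, with bars for 1 SE and filled points for an edgeR adjusted p under 0.05. The 49 filled points all lie below 0, from -4.34 for BTG2 to -0.17 for CDIP1.

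CDKN1A (ENSG00000124762, from 36644305 to 36655116 on chromosome 6 of hg19) encodes p21. It had 2016, 2015, 1965, 1158 and 1232 CPM in OIS-v-v replicates 1 to 5, and 465, 453, 465, 325 and 323 CPM in OIS-shp53 replicates 1 to 5. Every OIS-shp53 library was also below the Grow-v-v libraries, which had 656 to 891 CPM. CDKN1A fell by 2.02 on the log2 scale (SE 0.05, edgeR adjusted p = 3.77e-11). The fall was slightly smaller in replicates 4 and 5, where the control level was lower, with log2 fold changes of -2.11 and -1.88 in the 2 sets (difference 0.23, edgeR adjusted p = 0.0177).

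BTG2, an antiproliferative protein that takes part in mRNA decay, showed the largest fall among genes with a symbol, a mean of at least 1 CPM and the same direction in all 5 pairs. It had 14.2, 14.2, 14.0, 8.20 and 6.58 CPM in OIS-v-v replicates 1 to 5 and 0.543, 0.963, 1.0, 0.240 and 0.130 CPM in OIS-shp53 replicates 1 to 5, a log2 fold change of -4.34 (SE 0.18, edgeR adjusted p = 5.86e-09). GADD45A, which inhibits the kinase CDK1 and aids DNA repair, fell by 0.77 on the log2 scale and the kinase gene PLK3 by 0.50. Of the 8 arrest targets tested, 4 fell. The others were BTG1 (0.16), PLK2 (-0.13), E2F7 (0.00) and FBXW7 (-0.10), none with an edgeR adjusted p under 0.05 over all pairs. In the 2 sets BTG1 had log2 fold changes of 0.28 and -0.03 (edgeR adjusted p of the difference = 0.00386). PLK2 had -0.24 and 0.04 (edgeR adjusted p of the difference = 0.0158).

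Among the targets that feed back on p53, 5 of 6 fell. MDM2 had 71.4, 72.1, 74.3, 79.9 and 76.9 CPM in OIS-v-v replicates 1 to 5 and 42.2, 41.1, 43.2, 45.5 and 43.8 CPM in OIS-shp53 replicates 1 to 5, a log2 fold change of -0.79 (SE 0.04, edgeR adjusted p = 4.86e-08) that did not differ detectably between the sets (difference -0.03, edgeR adjusted p = 0.859). RPS27L, a ribosomal protein paralog, fell by 0.98, CCNG1, the gene of cyclin G1, by 0.84, TRIAP1, whose window is printed above, by 0.63 and the phosphatase gene PPM1D by 0.56 on the log2 scale. MDM4, the relative of MDM2 that blocks p53 activity, had a log2 fold change of -0.29 (SE 0.18, edgeR adjusted p = 0.257).

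Death genes formed the role with the most members called: 14 of 15 tested fell, with a median log2 fold change of -0.69. FAS, the death receptor, had 34.3, 30.7, 32.8, 26.6 and 23.2 CPM in OIS-v-v replicates 1 to 5 and 7.56, 7.22, 6.84, 5.91 and 5.84 CPM in OIS-shp53 replicates 1 to 5, a log2 fold change of -2.14 (SE 0.07, edgeR adjusted p = 4.03e-10). The decoy receptor gene TNFRSF10C fell by 2.52 on the log2 scale, and its relatives TNFRSF10D, TNFRSF10B and TNFRSF10A by 0.81, 0.68 and 0.66. BAX, which permeabilises mitochondria, fell by 0.63 and BBC3, the gene of PUMA, by 0.82. PMAIP1, the gene of NOXA, fell by only 0.19. APAF1, which forms the apoptosome, was the member that did not pass (0.17, edgeR adjusted p = 0.0693).

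In DNA repair 4 of 5 targets fell. They were DDB2 and XPC, which recognise damage for nucleotide excision repair, by 1.23 and 0.32 on the log2 scale, RRM2B, a subunit of a ribonucleotide reductase, by 1.18, and POLH, a translesion polymerase, by 0.49. Of 13 metabolic targets 8 fell. FDXR, a mitochondrial reductase that hands electrons to ferredoxin, had 15, 13.7, 16.5, 15.9 and 16.4 CPM in OIS-v-v replicates 1 to 5 and 3.38, 3.73, 4.42, 3.32 and 3.64 CPM in OIS-shp53 replicates 1 to 5, a log2 fold change of -2.07 (SE 0.09, edgeR adjusted p = 1.13e-08). The lysosomal fucosidase gene FUCA1 fell by 1.30 and SESN1, a sestrin that restrains mTORC1, by 1.04. ACAD11 had a log2 fold change of 0.31 (edgeR adjusted p = 0.213), and 4452 of its 5400 exon bases are shared with another gene. Of 5 targets of autophagy, lysosome and lipid handling, SPATA18, ACER2 and DRAM1 fell by 2.20, 1.52 and 0.23.

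Of 10 secreted and surface targets 6 fell, with a median of -0.23. GDF15, a stress-induced cytokine, had 797, 785, 804, 412 and 448 CPM in OIS-v-v replicates 1 to 5 and 162, 166, 159, 69.6 and 69.9 CPM in OIS-shp53 replicates 1 to 5, a log2 fold change of -2.42 (SE 0.06, edgeR adjusted p = 3.77e-11). Its OIS-shp53 levels still lay above those of all Grow-v-v libraries, which had 17.2 to 60.4 CPM. SULF2, a sulfatase that edits heparan sulfate, fell by 3.95 (SE 0.24) and the semaphorin receptor gene PLXNB2, also printed above, by 0.66. LIF (0.02), KITLG (-0.16), CSF1 (-0.16) and CD82 (-0.11) did not pass over all pairs. In the 2 sets LIF had log2 fold changes of -0.11 and 0.21, KITLG -0.35 and 0.15 and CD82 -0.23 and 0.08. The edgeR adjusted p-values of the difference were 0.00107, 2.2e-05 and 0.00133. Among the other targets, TRIM22, an antiviral ubiquitin ligase, fell by 2.61 (SE 0.10, edgeR adjusted p = 3.48e-09), CYFIP2, a subunit of an actin regulator, by 2.92 and ZMAT3, an RNA-binding splicing regulator, by 1.07.

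Most partners and regulators of p53 moved little. Of the 14 genes tested 4 rose (background 12.0%), among them CDKN2A (0.65) and the DNA damage kinase genes CHEK1 (0.23) and ATM (0.16). The 4 became 1 without replicate 1 or 3 and with DESeq2, and 0 without the block by edgeR (5 at an unadjusted p of 0.05). CDKN2A, which encodes p16 and, in another reading frame, the MDM2 inhibitor ARF, had 29.5, 30.4, 27.3, 16.2 and 15.9 CPM in OIS-v-v replicates 1 to 5 and 40.1, 38.1, 39.5, 33.7 and 31.2 CPM in OIS-shp53 replicates 1 to 5 (SE 0.09, edgeR adjusted p = 0.000412), with log2 fold changes of 0.44 and 1.01 in the 2 sets. Its groups did not overlap, and gene counts do not tell p16 and ARF apart. Among 10 genes of CDK inhibitors and the RB family, 5 rose (background 12.0%) and CDKN1A fell. The 5 became 3 without replicate 1 or 2 and 2 without the block. In replicates 1 to 3 alone 7 were higher and 3 lower (background 19.0% and 18.1%). In replicates 4 and 5 alone 1 was higher and 1 lower (background 5.13% and 4.75%). The effect differed between the sets for 40% of the 10, against 8.89% of all genes. CDKN1C (p57) rose by 0.78, CDKN1B (p27) by 0.25, RBL2 by 0.24 and RB1 by 0.18. CDKN2B (p15) had a log2 fold change of -0.10 over all pairs (edgeR adjusted p = 0.336). Its values were -0.24 and 0.12 in the 2 sets (edgeR adjusted p of the difference = 0.00243).

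Interferon-stimulated genes rose. Of 30 listed genes 29 passed the filter, and of these 25 were higher and 1 was lower in OIS-shp53 cells, with a median log2 fold change of 1.11. Of all genes, 12.0% were higher and 10.7% lower. The filter passes a gene that reaches its minimum in 1 group only. Among the 24 members with at least 10 counts in every library, 20 were higher and 1 lower, with a median of 1.01. Under that filter 1537 of all 12477 genes were higher and 1409 lower. In 17 of the 29 the groups did not overlap, against 3.89% of all genes. Without the replicate block edgeR called 17 higher, against 330 of all 13378 genes. DESeq2 called 20 higher with the block, against 938 of all 13378 genes.

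MX1, a GTPase that traps viral nucleocapsids, had 1.29, 3.33, 1.99, 3.15 and 3.02 CPM in OIS-v-v replicates 1 to 5 and 8.52, 11.2, 9.21, 12.4 and 13.2 CPM in OIS-shp53 replicates 1 to 5, a log2 fold change of 2.11 (SE 0.13, edgeR adjusted p = 1.54e-07). OAS2, which makes the second messenger that activates RNase L, had 0.562, 0.595, 0.585, 1.09 and 1.15 CPM in OIS-v-v replicates 1 to 5 and 3.72, 4.93, 4.05, 7.98 and 8.38 CPM in OIS-shp53 replicates 1 to 5, a log2 fold change of 2.86 (SE 0.15, edgeR adjusted p = 4.35e-08). All OIS-shp53 libraries were above all OIS-v-v libraries for both genes, and the control levels were low. IFI6, a mitochondrial antiviral protein whose window is printed above, had 24.4, 23.9, 28.2, 13.6 and 19.8 CPM in OIS-v-v replicates 1 to 5 and 47.7, 52.6, 57.4, 61.8 and 75.7 CPM in OIS-shp53 replicates 1 to 5, a log2 fold change of 1.43 (SE 0.15, edgeR adjusted p = 2.33e-05). OASL, HERC5, MX2, IFIT1 and IFI27 rose by 2.15, 2.15, 1.94, 1.94 and 1.92 over all pairs, and OAS3, whose window is also printed, by 1.12.

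The sensors and transcription factors of the pathway had smaller fold changes than MX1 or OAS2. The RNA sensor gene IFIH1 (MDA5) rose by 1.02 and RIGI, another RNA sensor, by 0.31. STAT2, a transcription factor of interferon signalling, rose by 0.16 and IRF1 by 0.13, whereas IRF7 (0.07) and IRF9 (-0.10) did not pass. ISG15, a ubiquitin-like modifier, rose by 0.21, from 35.6 to 47.2 CPM in OIS-v-v to 41.2 to 52.6 CPM in OIS-shp53 libraries. CXCL10, a chemokine, was the member called lower, with a log2 fold change of -0.35 (SE 0.12, edgeR adjusted p = 0.0440). That call ended with any 1 of the 5 pairs left out, without the block (edgeR adjusted p = 0.211), with DESeq2 (adjusted p = 0.184) and with other scalings, and the log2 fold changes were -0.18 in replicates 1 to 3 and -0.58 in replicates 4 and 5. CXCL10 holds the same element in its window as ISG15 and MX1.

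Of the interferon genes looked at, 6 gave no counts and IFNE did. Other interferon genes, such as IFNG and the further IFNA genes, are not given here. IFNB1, IFNA1, IFNL1, IFNL2, IFNK and IFNW1 had 0 counts in all 10 libraries, which allows at most 3 of 186211403 counts, or 0.0161 CPM over the libraries together. IFNE, an interferon of epithelia singled out after its values were seen, had 22 to 39 counts in a library and 260 in all 10. Its change with the hairpin is not given here. Levels of immune markers were near 0 in both groups, as given above.

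**Figure D3:**
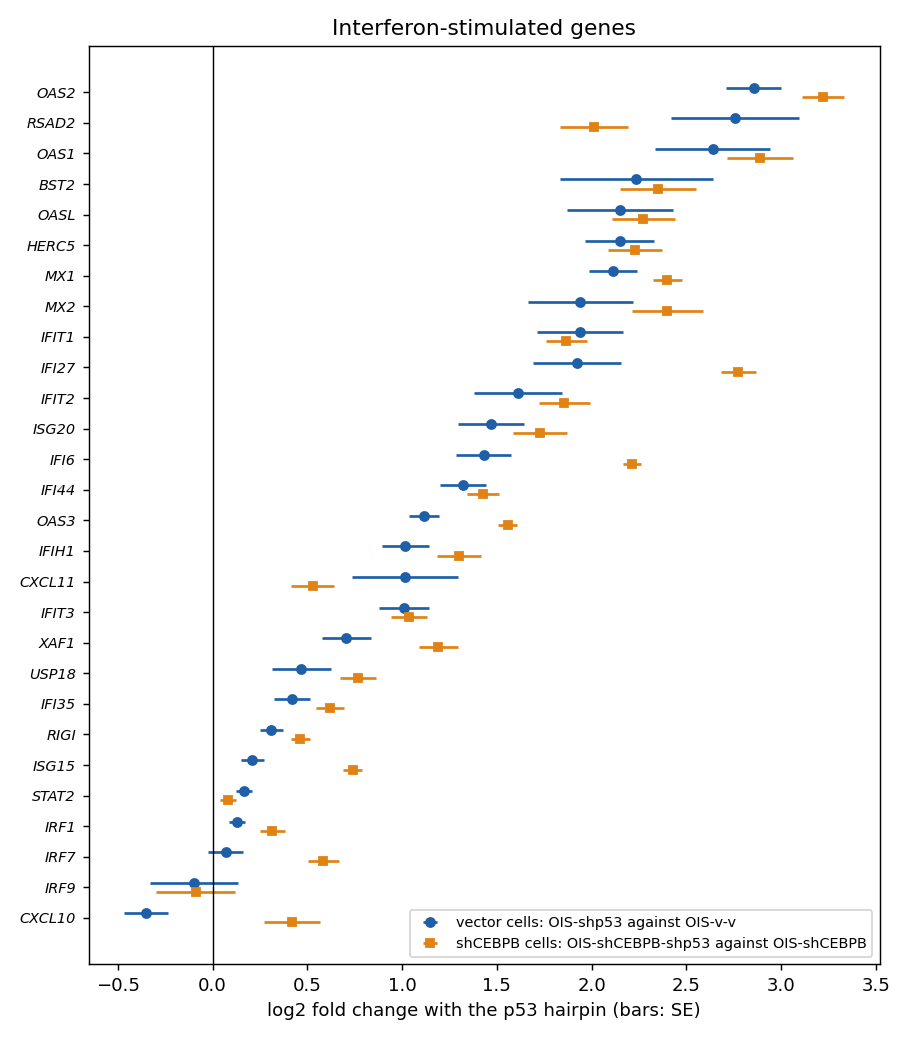
Log2 fold change with the p53 hairpin of 28 of the 29 interferon-stimulated genes tested, in vector cells (circles, OIS-shp53 against OIS-v-v) and in shCEBPB cells (squares, OIS-shCEBPB-shp53 against OIS-shCEBPB), with bars for 1 SE and genes ordered by the first value. In vector cells the values run from -0.35 for CXCL10 to 2.86 for OAS2, and 25 passed the test as higher.

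In both sets the interferon-stimulated genes were higher, 24 in replicates 1 to 3 (background 19.0%) and 22 in replicates 4 and 5 (background 5.13%), 20 of them in both. Their sizes differed between the sets for 9 of the 29, by a test of the difference itself, against 8.89% of all genes. IFIT1, which binds viral RNA lacking a proper cap, had log2 fold changes of 2.59 in replicates 1 to 3 and 1.15 in replicates 4 and 5 (edgeR adjusted p of the difference = 0.00129). OASL had 2.97 and 1.05 (edgeR adjusted p = 9.27e-05). Others rose more in replicates 4 and 5. IFI6 had 1.04 and 2.06 (edgeR adjusted p = 3.88e-08), MX2 1.43 and 3.36 (edgeR adjusted p = 0.00229) and IFI27 1.34 and 2.90 (edgeR adjusted p = 5.04e-05). For MX1 and OAS2 the difference between the sets had edgeR adjusted p-values of 0.849 and 0.993.

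Cell cycle genes gave an answer that depended on the set. Over all 5 pairs, 33 of 53 G2/M phase genes were higher and 1 lower, with a median of 0.39, and 12 of 42 S phase genes were higher and 1 lower, with a median of 0.23. Of all genes, 12.0% were higher and 10.7% lower. In 6 of the G2/M genes the groups lay apart in the direction of a rise (background 3.89%). In replicates 1 to 3 alone, 50 of the 53 G2/M genes were higher (median 0.73, background 19.0%). In replicates 4 and 5 alone 0 were by edgeR (2 at an unadjusted p of 0.05, median -0.01), against a background of 5.13%. For S phase genes the counts were 33 of 42 and 0 (0 also at an unadjusted p of 0.05), with 8 lower in replicates 4 and 5 (background 4.75%). The effect was smaller in replicates 4 and 5 than in replicates 1 to 3 for 42 of the 53 G2/M genes (79.2%) and 32 of the 42 S phase genes (76.2%), against 5.20% of all genes. With 1 pair left out, 9 to 13 of the G2/M genes were higher without replicate 1, 2 or 3 and 43 to 44 without replicate 4 or 5, and of the S phase genes 2 and 17 to 24. Without the block 3 G2/M genes and 0 S phase genes were higher by edgeR (23 and 4 at an unadjusted p of 0.05), against 330 of all 13378 genes by adjusted p.

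MKI67, which encodes the proliferation marker Ki-67, had 43.1, 53.8, 42.9, 79.0 and 86.5 CPM in OIS-v-v replicates 1 to 5 and 75.9, 85.9, 84.4, 71.5 and 68.8 CPM in OIS-shp53 replicates 1 to 5. The OIS-shp53 level was thus above the control in replicates 1 to 3 and below it in replicates 4 and 5, with log2 fold changes of 0.82 and -0.23 (edgeR adjusted p of the difference = 1.45e-10). The sets lay further apart in the controls than in the OIS-shp53 libraries. TOP2A, the topoisomerase of mitotic chromosomes, had 51.5 to 53.1 CPM in OIS-v-v replicates 1 to 3 and 103 to 105 CPM in replicates 4 and 5, whereas its OIS-shp53 levels were 88.9 to 96.2 CPM in replicates 1 to 3 and 106 CPM in both replicates 4 and 5. CCNB2, a cyclin of mitotic entry, had 7.91 to 9.36 and 14.8 to 15.1 CPM in OIS-v-v and 14.0 to 17.9 and 14.1 to 16.5 CPM in OIS-shp53 libraries. CDC20, the activator of the anaphase-promoting complex, had log2 fold changes of 0.79 and -0.03 in the 2 sets (edgeR adjusted p of the difference = 3.17e-06). CDC6, which loads the replicative helicase, had 13.7 to 14.2 and 33.0 to 36.5 CPM in OIS-v-v and 25.1 to 29.8 and 30.7 to 31.5 CPM in OIS-shp53 libraries.

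The same held for the list. From replicates 1 to 3 to replicates 4 and 5, the level of 52 of the 53 G2/M genes was higher in OIS-v-v libraries, with a median log2 difference of 0.77. In OIS-shp53 libraries 31 were higher and 22 lower, with a median of 0.07, and in Grow-v-v libraries 52 were higher, with a median of 0.70. For 49 of the 53 the sets lay further apart in OIS-v-v than in OIS-shp53 libraries. Over all genes tested this was so for 8541 of 13378, and the median differences were 0.02 in OIS-v-v and 0.01 in OIS-shp53. The OIS-v-v level of CDKN1A was lower in replicates 4 and 5, and its part in this result was not tested. For OIS-v-v against Grow-v-v libraries, the median log2 fold changes of the 53 G2/M genes were -2.36 and -2.17 in the 2 sets. That comparison uses the same OIS-v-v libraries, and OIS-shp53 libraries were not tested against Grow-v-v libraries.

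**Figure D4:**
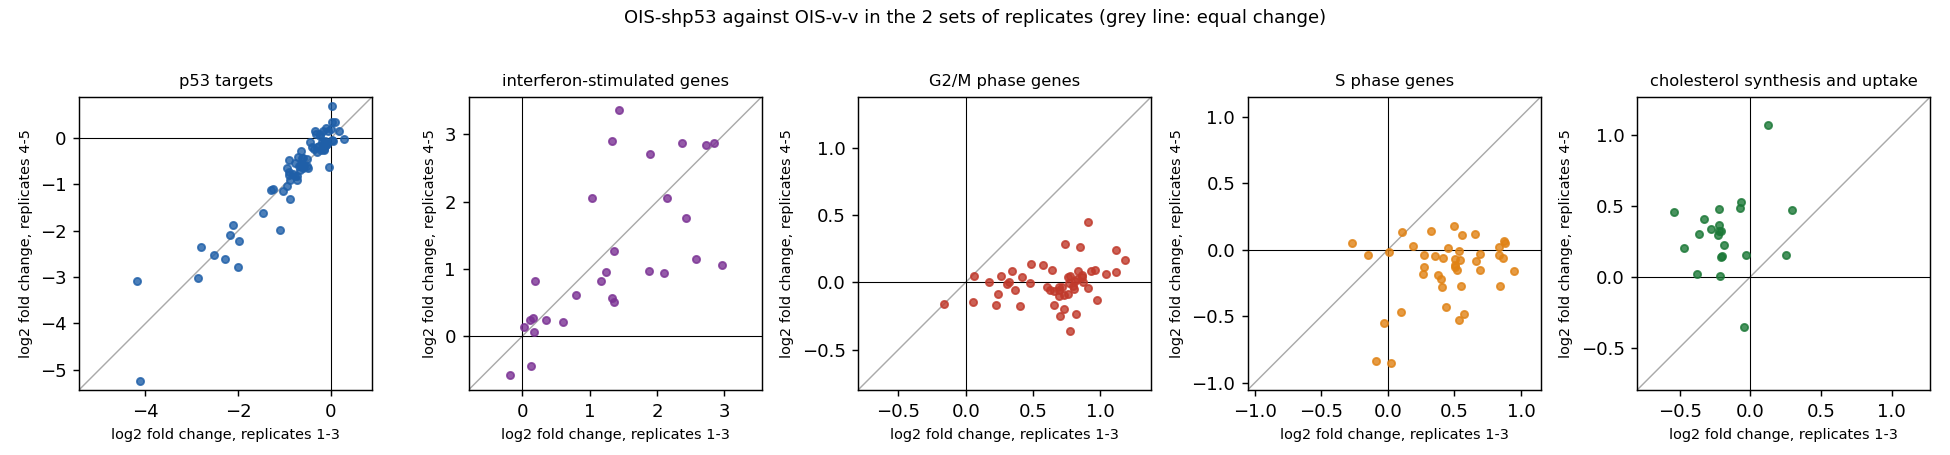
Log2 fold change of OIS-shp53 against OIS-v-v in replicates 1 to 3 (horizontal axis) and in replicates 4 and 5 (vertical axis), 1 point per gene and 1 panel for each of 5 lists, with the diagonal marking equal values. Most points of p53 targets and interferon-stimulated genes lie on the same side of 0 in both sets, while most G2/M and S phase genes lie to the right of 0 and near or below 0 on the vertical axis, and most cholesterol genes lie left of 0 on the horizontal and above 0 on the vertical axis.

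Genes of cholesterol synthesis and uptake went opposite ways in the sets. Of 24 tested, 16 were lower in replicates 1 to 3 (background 18.1%) and 14 higher in replicates 4 and 5 (background 5.13%). Of them 11 were called in opposite directions, against 69 of all genes. The effect was higher in replicates 4 and 5 for 16 of the 24 (66.7%), against 3.69% of all genes. Over all 5 pairs 2 were higher (8.33%) and 1 lower (4.17%), below the 12.0% and 10.7% of all genes. HMGCS1, the synthase that makes HMG-CoA, had 30.7, 31.9, 34.3, 17.5 and 15.1 CPM in OIS-v-v replicates 1 to 5 and 24.5, 24.3, 26.2, 20.4 and 20 CPM in OIS-shp53 replicates 1 to 5, with log2 fold changes of -0.37 and 0.31 in the 2 sets (edgeR adjusted p of the difference = 0.000118). SQLE, the squalene epoxidase, had log2 fold changes of -0.20 and 0.32 in the 2 sets (edgeR adjusted p of the difference = 0.00084). Again the OIS-shp53 levels lay closer together, while 20 of the 24 genes were lower in replicates 4 and 5 of OIS-v-v (median log2 difference -0.67, against -0.11 in OIS-shp53).

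SASP cytokine and chemokine genes moved in both directions. Of 17 tested, 5 were higher and 4 lower in OIS-shp53 cells, against 12.0% and 10.7% of all genes, with a median of -0.03 (the 4 became 2 without replicate 1, 2 or 3, and the counts 3 and 1 without the block). In replicates 1 to 3 alone 7 were higher and 7 lower (background 19.0% and 18.1%). In replicates 4 and 5 alone 7 were higher and 3 lower (background 5.13% and 4.75%), and 3 genes were called in opposite directions in the 2 sets. The effect differed between the sets for 9 of the 17 (52.9%), against 8.89% of all genes. Between OIS-v-v and Grow-v-v cells, where 49.7% of genes passed and 24.8% were higher, 13 of 16 were higher, with a median of 2.59. The 2 comparisons share the OIS-v-v libraries, so their values are only set side by side. IL6 had 1092, 1011, 1048, 1632 and 1486 CPM in OIS-v-v replicates 1 to 5 and 958, 926, 955, 1384 and 1429 CPM in OIS-shp53 replicates 1 to 5, a log2 fold change of -0.15 (SE 0.04, edgeR adjusted p = 0.0202). The neutrophil chemokine gene CXCL8 had 5246 to 6096 CPM in OIS-v-v and 5223 to 6205 CPM in OIS-shp53 libraries (-0.03, edgeR adjusted p = 0.663), and IL1B fell by 0.19. The larger changes were those of IL24, which rose by 0.78 (SE 0.06), CXCL6, a neutrophil chemokine, which rose by 0.77 (SE 0.09), IL11, a cytokine of fibroblast activation, which rose by 0.62 (SE 0.05), and CXCL2, which fell by 0.46 (SE 0.05). IL33 rose by 1.58 (SE 0.26) from 0.225 to 0.965 CPM in OIS-v-v libraries.

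IL1A, the membrane cytokine that starts the SASP cascade, differed in direction between the sets. It had 341, 324, 328, 138 and 130 CPM in OIS-v-v replicates 1 to 5 and 245, 240, 229, 173 and 182 CPM in OIS-shp53 replicates 1 to 5, with log2 fold changes of -0.48 and 0.40 (edgeR adjusted p of the difference = 1.02e-10). CSF3, the granulocyte growth factor, differed the other way, with log2 fold changes of 0.13 and -0.58 (edgeR adjusted p = 2.92e-09). In OIS-v-v libraries CSF3 had 387 to 402 CPM in replicates 1 to 3 and 613 to 667 CPM in replicates 4 and 5, and in OIS-shp53 libraries 424 to 453 and 427 to 429 CPM.

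**Figure D5:**
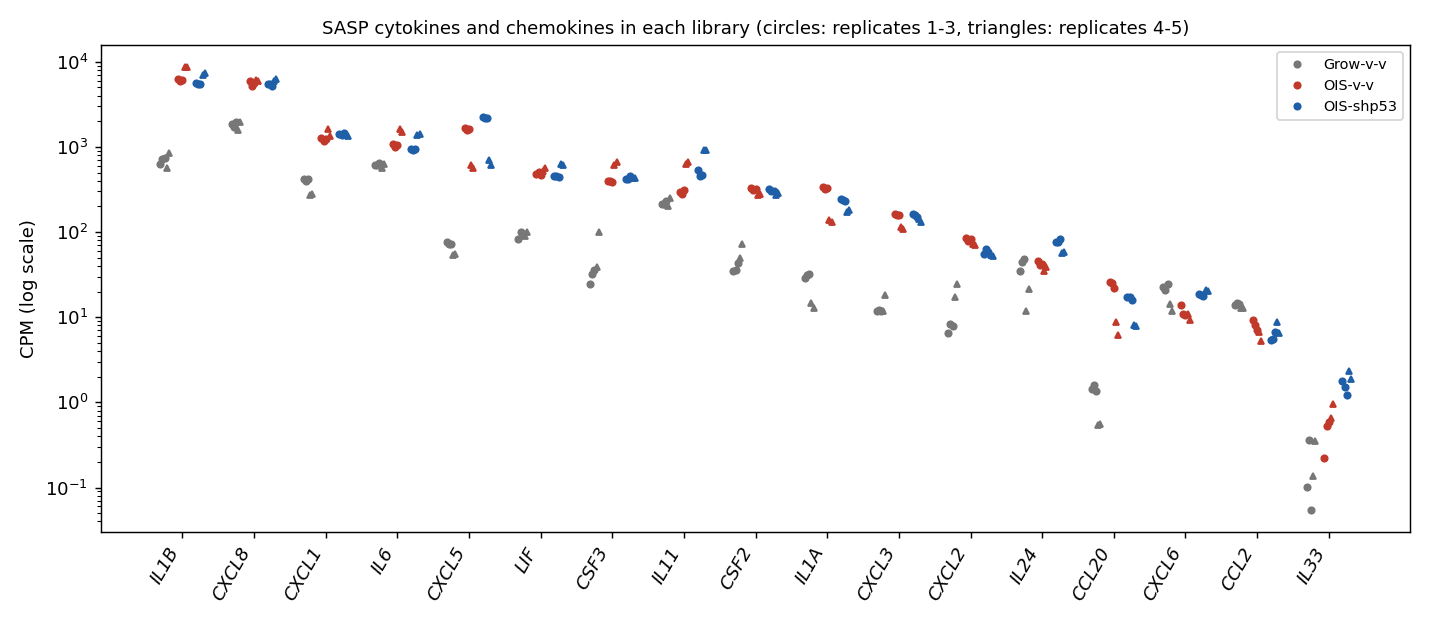
Levels in CPM (log scale) of the 17 SASP cytokine and chemokine genes in each Grow-v-v, OIS-v-v and OIS-shp53 library, with replicates 1 to 3 as circles and replicates 4 and 5 as triangles. For most genes the OIS-v-v and OIS-shp53 points lie close together and above the Grow-v-v points, and IL1A shows 324 to 341 CPM in circles and 130 to 138 CPM in triangles in OIS-v-v.

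Of 14 proteases and inhibitors 4 rose and 2 fell (background 12.0% and 10.7%), and the 2 became 1 without replicate 1, 2 or 3. Without the block edgeR called 2 higher and 0 lower (1 lower at an unadjusted p of 0.05). MMP1, an interstitial collagenase, had 17860, 16840, 17690, 18020 and 18480 CPM in OIS-v-v replicates 1 to 5 and 22940, 22430, 22060, 22100 and 23530 CPM in OIS-shp53 replicates 1 to 5, so that the groups did not overlap at a log2 fold change of 0.35 (SE 0.04, edgeR adjusted p = 0.000128). TIMP3, a matrix-bound inhibitor of metalloproteinases, rose by 0.56 and MMP10 by 0.29. MMP3 had a log2 fold change of 0.01 (edgeR adjusted p = 0.884). TIMP1 fell by 0.35 over all pairs, with log2 fold changes of -0.58 in replicates 1 to 3 and 0.01 in replicates 4 and 5.

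Fibrogenic and matrix genes were mixed. Of 29 tested, 8 were higher and 9 lower (background 12.0% and 10.7%), with a median of 0.11 (4 and 4 without replicate 1, 2 and 1 without the block). The effect differed between the sets for 16 (55.2%), against 8.89% of all genes, and 15 of them were higher in replicates 4 and 5, against 3.69% of all genes. ACTA2, the smooth muscle actin of myofibroblasts, had 93.7, 92.7, 94.2, 61.0 and 51.4 CPM in OIS-v-v replicates 1 to 5 and 39.2, 41.3, 40.9, 35.3 and 37.7 CPM in OIS-shp53 replicates 1 to 5, a log2 fold change of -0.99 (SE 0.09, edgeR adjusted p = 1.27e-05). Within the sets ACTA2 had log2 fold changes of -1.21 and -0.62. TAGLN, an actin-binding protein of the same cells, fell by 0.50 (-0.67 and -0.23 in the sets). LUM, a small proteoglycan, rose by 0.50 and FBLN1, a basement membrane protein, by 0.53. DCN, another small proteoglycan, rose by 0.54 over all pairs, with log2 fold changes of 0.81 in replicates 1 to 3 and 0.19 in replicates 4 and 5 (edgeR adjusted p of the difference = 1.92e-05). POSTN, a secreted matricellular protein, had 222 to 264 CPM in all OIS-v-v libraries and, in OIS-shp53 libraries, 198 to 208 CPM in replicates 1 to 3 and 467 and 495 CPM in replicates 4 and 5 (edgeR adjusted p of the difference = 2.46e-12). POSTN thus differed from the cell cycle and cholesterol genes, as its sets lay apart in OIS-shp53 and not in OIS-v-v libraries. Of the 10 fibroblast markers 4 rose and 1 fell (2 and 0 without the block by edgeR, also at an unadjusted p of 0.05), and PDGFRB, the receptor for platelet-derived growth factor B, rose by 0.79 (SE 0.04) with no overlap between the groups, from 118 to 134 CPM to 208 to 229 CPM.

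In other pathways, 11 of 20 glycolysis genes rose (background 12.0%) and 0 fell by edgeR, with a median of 0.15, and 7 rose without replicate 1 or 2 and 2 without the block. No glycolysis gene was lower at an unadjusted p of 0.05 over all pairs either, and DESeq2 called 9 higher and 0 lower. In replicates 1 to 3 alone 14 were higher (background 19.0%), and in replicates 4 and 5 alone 3 were (background 5.13%). The effect was lower in replicates 4 and 5 for 6 of the 20 (30%), against 5.20% of all genes. The aldolase gene ALDOC rose by 0.71 (1.04 in replicates 1 to 3 and 0.33 in replicates 4 and 5), PDK1, which holds pyruvate out of the mitochondrial cycle, by 0.55 and the regulatory kinase gene PFKFB3 by 0.37. Of 22 genes of ERK pathway output 7 rose and 3 fell (background 12.0% and 10.7%), with a median of 0.02. The 7 became 4 without replicate 1, and without the block edgeR called 0 higher and 0 lower (4 and 2 at an unadjusted p of 0.05). In replicates 1 to 3 alone 11 were higher and 4 lower (background 19.0% and 18.1%). In replicates 4 and 5 alone 3 were higher and 4 lower (background 5.13% and 4.75%). The effect differed between the sets for 36.4% of the 22, against 8.89% of all genes. The immediate early genes EGR2 and FOS rose by 0.66 and 0.57 and the growth factor gene HBEGF fell by 0.46 (-0.65 in replicates 1 to 3 and -0.14 in replicates 4 and 5). HRAS fell by 0.22. Of 14 Notch pathway genes 4 rose (background 12.0%), and 0 did without the block by edgeR (3 at an unadjusted p of 0.05). Among the 4, the Notch target gene HES1 rose by 0.38 and HEYL by 1.44, the latter at a mean under 1 CPM. HEY1, also among the 4, had log2 fold changes of 0.53 in replicates 1 to 3 and 0.03 in replicates 4 and 5 (edgeR adjusted p of the difference = 0.0195). Of the other cell type markers, 2 of 4 endothelial genes tested rose (KDR by 1.15 and CLDN5 by 0.76, with 0 called without the block by edgeR and 1 at an unadjusted p of 0.05), 1 of 2 smooth muscle genes fell (ACTG2 by 0.24) and the 1 epithelial gene tested, CLDN4, had a log2 fold change of -0.58 (edgeR adjusted p = 0.0737). Summed endothelial markers lay at 69.8 to 77.9 CPM in OIS-v-v and 69.8 to 89.0 CPM in OIS-shp53 libraries.

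Among all genes with a mean of at least 1 CPM and the same direction in all 5 pairs, the largest falls included those of BTG2, SULF2, IVL, CYFIP2, TRIM22, TNFRSF10C, GDF15, LCE3D and VWCE. Of these, IVL and LCE3D encode proteins of the cornified envelope of skin. IVL had 13, 11.2, 13.5, 1.90 and 1.27 CPM in OIS-v-v replicates 1 to 5 and 1.13, 1.74, 1.84, 0.240 and 0.130 CPM in OIS-shp53 replicates 1 to 5, a log2 fold change of -3.03 (SE 0.16, edgeR adjusted p = 4.86e-08). Its groups overlapped over all 10 libraries and lay apart within each set. The 10 largest rises included 5 members of the interferon-stimulated list (OAS2, OASL, HERC5, MX1 and MX2). The others were the mitochondrial nucleotide kinase gene CMPK2, which that list does not hold, CA9, MMP9, APOE and SLC7A14.

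CA9, a cell surface carbonic anhydrase known as a hypoxia marker, had 0.169, 0.178, 1.11, 1.25 and 1.75 CPM in OIS-v-v replicates 1 to 5 and 16.4, 9.62, 5.95, 2.79 and 3.31 CPM in OIS-shp53 replicates 1 to 5. The groups did not overlap, but the size ranged widely, with a log2 fold change of 2.93 (SE 0.51, edgeR adjusted p = 0.00140) and values of 4.43 and 1.03 in the 2 sets (edgeR adjusted p of the difference = 3.74e-05). Of its 1681 exon bases, 643 are shared with another gene. APOE, the lipid carrier apolipoprotein E, had 1.46 to 1.55 and 4.73 to 5.67 CPM in OIS-v-v and 15.1 to 16.7 and 10.1 to 10.9 CPM in OIS-shp53 libraries, a log2 fold change of 2.25 (SE 0.33, edgeR adjusted p = 0.000412), with 3.42 and 1.02 in the 2 sets. MMP9, a gelatinase, had 0.965 to 3.10 CPM in OIS-v-v and 4.54 to 20.5 CPM in OIS-shp53 libraries, a log2 fold change of 2.68 (SE 0.17, edgeR adjusted p = 2.55e-07).

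The same hairpin was set against its own control in cells that also carried the C/EBPβ hairpin, in libraries that the first comparison does not use. Of 13418 genes, 4425 passed (33.0%), and 1992 did so without the block. Of the 13144 genes tested in both backgrounds, 2050 were called in both, and 2028 of these had the same direction (98.9%). The 2028 genes are 67.6% of the 2998 calls in vector cells and 46.4% of the 4371 calls in shCEBPB cells. Of the p53 targets 57 of 73 fell and 2 rose, against 16.1% and 16.9% of all genes, with a median of -0.53. Of the interferon-stimulated genes 27 of 29 rose (background 16.9%) and 0 fell (0 also at an unadjusted p of 0.05), with a median of 1.43, and CXCL10 rose by 0.42.

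The 2 sets were present there too, and the effect differed between them for 8.67% of all genes (8.89% in vector cells). The share was lower than in vector cells for G2/M (73.6% against 79.2%), S phase (35.7% against 76.2%) and cholesterol genes (58.3% against 66.7%). It was higher for p53 targets (24.7% against 13.7%) and glycolysis genes (55% against 30%). In shCEBPB cells 50 of 53 G2/M genes were higher in replicates 1 to 3 (median 0.82), against 2844 of all 13370 genes. In replicates 4 and 5, 33 were higher (median 0.26), against 1180 of all 13238 genes. All 33 were also higher in the first set, and 39 of the 53 differed between the sets. Of 24 cholesterol genes 14 were lower and 4 higher in replicates 1 to 3, against 2713 and 2844 of all 13370 genes. In replicates 4 and 5, 5 were higher and 1 lower, against 1180 and 1216 of all 13238 genes. Opposite directions were called for 2 of them. MKI67 rose by 0.44 over the 5 pairs.

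Whether the effect of the p53 hairpin differed with C/EBPβ was tested with an interaction term over 20 libraries. It passed for 104 of 13873 genes (0.750%), 32 higher (0.231%) and 72 lower (0.519%) in shCEBPB cells, and for 6 without the block. It passed for 29, 34 and 42 genes without replicate 1, 2 and 3. TRIM22 fell by 2.61 in vector cells and by 1.72 in shCEBPB cells (edgeR adjusted p of the difference = 0.000426), and FAS by 2.14 and 1.62 (edgeR adjusted p = 0.00248). For both genes the OIS-shCEBPB level was the higher control, 42.1 ± 1.6 against 20.2 ± 1.44 CPM for TRIM22 and 45.6 ± 3.40 against 29.5 ± 4.58 CPM for FAS (SD, n = 5 each). BAX, with a log2 fold change of -0.63 in vector and -0.39 in shCEBPB cells, also differed. Of the interferon-stimulated genes, ISG15 (0.21 and 0.74) and IFI6 (1.43 and 2.21) rose more in shCEBPB cells.

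Several secreted factors differed the other way. LIF, a cytokine of the IL6 family, had a log2 fold change of 0.02 in vector and -0.76 in shCEBPB cells, MMP3 0.01 and -0.52, IL11 0.62 and 0.15, and IL24 0.78 and 0.14. HBEGF, a growth factor of the EGF family, fell more in shCEBPB cells, by 0.96 against 0.46. For the p53 targets as a list, 3 of 73 had a higher (4.11%) and 4 a lower effect (5.48%) in shCEBPB cells. The shares of all genes were 0.231% and 0.519%. The median difference of the list was 0.00, and its median log2 fold changes were -0.54 and -0.53 in the 2 backgrounds.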

How the data were processed

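Poly(A) RNA of IMR90 cells was measured in 25 libraries of 5 groups, 5 each. Per the labels, the authors used a TruSeq or an Illumina stranded mRNA kit and a HiSeq-4000 or NovaSeq-6000. Reads were mapped with STAR (hg19) and assigned to GENCODE19 genes by featureCounts. The deposited values are raw counts for 44503 genes. The strand and pairing settings of this table and the kit and instrument of each library are not given in the sources used here, so reads of a gene and an overlapping antisense partner may not be told apart. The labels call the libraries biological replicates, but nothing ties a number to a culture, so p-values measure the spread between these libraries.

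Counts were tested with edgeR 4.0.16 (R 4.3.3): TMM factors, filterByExpr with its minimum of 10 counts, the quasi-likelihood F test, replicate number as a block, and Benjamini-Hochberg adjustment over all genes tested. The SE is the log2 fold change divided by the square root of F. Deviations of libraries with the same number correlated at 0.38 to 0.59 in all 5 pairs, but libraries of the same set with other numbers did so too, so the number may stand for the set. The test of a difference between the sets used the same block with a set-by-hairpin term and was added after seeing the data. Within replicates 4 and 5 alone, few residual degrees of freedom remain, so counts and not p-values are quoted. On simulated counts of this design (13216 genes), 77.6%, 94% and 97% of genes changed 1.5, 2 and 4-fold were recovered and 5.8% of calls were false. The simulated hairpin effect was the same in both sets, whereas it differed for 8.89% of all genes in the data. These shares therefore do not give the error where the sets differ. No pair of libraries was a duplicate by a chi-square test of counts.

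The libraries, the gene lists and the tests were chosen with earlier results of these data known. Symbols were given for 34516 of the genes, and p53 targets and interferon-stimulated genes matched for 80 of 81 and 30 of 30. Genes named are CEBPB, CDKN1A and MDM2, the 10 largest rises and falls among genes with an adjusted p under 0.05, a mean of at least 1 CPM and 1 direction in all 5 pairs, and the 3 largest in each direction in each list (2 per role for p53 targets), with other list members named for their role. Alternatives were no block, a set term, each set alone, each replicate or library left out, DESeq2 1.42.0, other scalings and filters, stricter thresholds and 1 fit of all 25 libraries. Sequences came from RefSeq (GRCh38.p14), and gene positions from hg19. The hairpin sequence was not used here, and some results for single genes are not reported here.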

Additional observations from a re-analysis of the deposited data

Results flagged for a closer look

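Gaps between the highest or lowest library and its neighbour were measured on log2 CPM, whereas the levels below are CPM. In 5 of the 164 groups of 5 libraries looked at for the named genes (3.05%), the gap exceeded 0.71 of the group's range, and chance gives about 5%. SULF2 in OIS-shp53 replicate 5 was lowest, at 0.0649 CPM against 0.289 to 0.376 in the others (gap 0.806 of the range), and FBLN1 in the same library was highest, at 72.1 CPM against 61.1 to 61.9 (0.925). OIS-shp53 replicate 4 was lowest for MX2, at 4.14 CPM against 4.8 to 5.05 (0.747), and for ACER2, at 0.433 CPM against 0.668 to 0.789 (0.713). ACER2 in OIS-v-v replicate 2 was highest, at 2.38 CPM against 1.79 to 1.93 (0.738). None of these libraries turned the direction of its gene.

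Among genes named for the size of their change with the p53 hairpin, the effect differed between shCEBPB and vector cells by the interaction test for the following, beside the members of lists already described. The difference of log2 fold changes, shCEBPB less vector, was 0.89 for TRIM22, 0.52 for FAS, -0.49 for HBEGF, -0.64 for IL24 and -1.33 for SLC7A14, the gene of a transporter-like protein. SLC7A14 went from 0.634 to 2.59 CPM in vector cells and from 11.6 to 17.8 CPM in shCEBPB cells. The fit called 104 genes with the replicate block and 6 without it.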

How the results depend on the processing

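The fall of the median p53 target (-0.57 to -0.52 with a replicate or library left out) held under every alternative run. The count of 3037 genes did not hold in size. It was 594 with no replicate block, 4990 in replicates 1 to 3, 1330 in replicates 4 and 5, 1921 with DESeq2, 1518 with all 25 libraries in 1 fit, 1400 at an adjusted p under 0.01, 524 with a fold of at least 1.5 and 181 with a fold of at least 2. It ran from 1538 (without replicate 1) to 3397 (without replicate 4) with a pair left out. With 1 library left out and no block it was 336, 357, 381, 422 and 450 without OIS-shp53 replicates 1 to 5, and 343, 414, 357, 938 and 711 without OIS-v-v replicates 1 to 5. For shCEBPB cells 1992 genes passed without the block (3181 to 4491 with a replicate left out), and for the interaction 6 (29 to 112). Single genes were checked only where the rule above named them. Among these, the direction turned in replicates 4 and 5 alone for CCL20 (0.11), TIMP1 (0.00839), ELN (0.00579), NSDHL (0.0223) and THY1 (0.0574), and none passed there. Genes outside the rule, such as IL1A, CSF3 and MKI67 described above, also had opposite directions in the 2 sets. For the genes named by the rule, the other alternatives gave 1462 values on the same side of the threshold, 588 that no longer passed and 6, all of CEBPB, that newly passed. Library sizes alone raised the share of higher calls from 53% to 61.2%. Intervals for genes under 1 CPM rest on few counts.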
